A study of Mus musculus with 80 samples.

Results

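The genes described are the 9 that encode the GABA-B receptor and its closest partners in the cell membrane, out of 22815 genes in the expression table. They were taken by gene symbol, and each had 1 row: the receptor subunits Gabbr1 and Gabbr2, the GIRK potassium channel subunits Kcnj3, Kcnj5, Kcnj6 and Kcnj9, and the KCTD auxiliary subunits Kctd8, Kctd12 and Kctd16. Their transcripts were followed in single cells from the pars reticulata of the substantia nigra (SNr), a GABAergic output nucleus of the basal ganglia, and the question was which of these subunits a nigral GABAergic neuron transcribes, and which it transcribes together.

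The cells came from GAD1-EGFP mice of the C57Bl/6 strain, in which GABAergic neurons carry green fluorescent protein (GFP), and no mouse received a treatment. Cells were picked by hand after dissociation of the SNr, and each gave its own Smart-seq2 library. Of 80 cells, 72 were labelled GFP-positive (9 from postnatal day 14, 23 from day 15, 29 from day 16 and 11 from day 20) and 8 GFP-negative. The 62 GFP-positive cells with more than 5000 genes detected (9, 20, 24 and 9 cells at the 4 ages) were used unless stated. The cells on either side of this limit had 5094 and 4426 genes. Expression is given as TPM (a gene's share of all transcripts, corrected for transcript length and scaled to 1000000, so that levels can be compared between genes) or as log2(TPM + 1), and detection means a TPM over 1.

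GFP marks every GABAergic neuron that was left in the dissected tissue, and the GFP-negative cells were a mixture. In 4 GFP-negative cells Th, the first enzyme of dopamine synthesis, stood at a TPM of 4742, 5927, 7578 and 9481, and in the other 4 at 7.73 or less, so that a limit of 100 separated them (Th-high cells; cells 44 and 48 by their labels at day 14, cells 75 and 86 at day 16). Over 7 other dopaminergic markers, without Th, which chose these cells, they averaged 8.12 on the log2(TPM + 1) scale (7.14 to 8.95), against 0.85 (0 to 2.82) in the 62 GFP-positive cells, and over the 4 GABAergic markers 2.03 against 7.56. The lowest of the 62 GFP-positive cells stood at 4.85 on the GABAergic list. Glutamatergic markers averaged 0.08 in both groups. Glial transcripts were present in both groups: 4 of 9 astrocyte and 4 of 8 oligodendrocyte markers were detected in at least 50% of the GFP-positive cells, and 4 and 5 in at least 50% of the Th-high cells. The astrocyte list averaged 2.71 (1.25 to 7.40 in single cells) in the GFP-positive and 2.72 (1.86 to 3.51) in the Th-high cells, and the oligodendrocyte list averaged 3.81 (2.82 to 4.65) in the Th-high cells and ranged from 0.74 to 8.03 in the GFP-positive cells. The labels name no animal, and so each group of cells was treated as 1 sample: no test of a difference between groups was made over cells, an SD describes how cells differ, and the interval given with a share is an exact 95% binomial (Clopper-Pearson) interval, which reflects counting error alone. The 4 ages come from different animals, and age and animal cannot be told apart. The 80 cells carried 80 different barcode pairs. In 7 of the 80 cells a short noncoding RNA held over 25% of the summed values, which lowers every other TPM of the cell: these were 4 of the 62 GFP-positive cells (cells 5, 13, 19 and 89), 2 of the GFP-positive cells with fewer genes, and the GFP-negative cell 77, none of them Th-high. The number of sequenced fragments, estimated from the spacing of the deposited values, was between 127871 and 6201354 per cell, with a median of 1785218 in the 62 GFP-positive and 1240065 in the Th-high cells.

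The GABA-B receptor is the metabotropic receptor for GABA and works as a dimer of 2 different proteins. The subunit GABA-B1 binds GABA, and GABA-B2 brings the dimer to the cell surface and couples it to Gi/o proteins. The beta and gamma subunits that these G proteins release open GIRK channels, inwardly rectifying potassium channels built of 4 subunits, and they close presynaptic calcium channels. KCTD proteins bind to the tail of GABA-B2 and to the G protein and set how fast the response rises and fades. SNr neurons receive GABA from the striatum and the globus pallidus, and neighbouring dopaminergic neurons are known for strong GABA-B and dopamine D2 receptor currents through GIRK channels.

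The 4 GIRK genes belong to 1 family and share a pore whose selectivity filter is nearly the same in each. Since the reads were 25 bases long, the pore is printed here to show how far the most conserved stretch of the 4 channels can still be told apart. Each line gives 45 coding bases in the direction of the gene, read from the GRCm38 reference, and capitals mark the 15 bases that encode the potassium channel signature.
Kcnj3 (chr2:55437612-55437656, plus strand): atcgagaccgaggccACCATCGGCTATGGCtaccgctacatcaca
Kcnj5 (chr9:32322544-32322588, minus strand): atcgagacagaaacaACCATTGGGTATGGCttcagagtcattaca
Kcnj6 (chr16:94832762-94832806, minus strand): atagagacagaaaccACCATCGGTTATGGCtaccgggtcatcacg
Kcnj9 (chr1:172326169-172326213, minus strand): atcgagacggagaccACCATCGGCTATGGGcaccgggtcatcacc
Within the signature, pairs of genes differed at 1 to 3 of 15 bases, and over the whole stretch at 7 (Kcnj6 and Kcnj9) to 12 of 45 bases. The longest run shared by any pair was 16 bases, between Kcnj3 and Kcnj9, shorter than a read, so that even the filter of the 4 channels could be assigned to 1 gene. No such separation holds for genes that overlap on the opposite strand, because Smart-seq2 does not mark the strand. Exons of Kcnj3 share 1621 bases with the antisense transcript Gm26794 and those of Kctd12 share 3805 bases with Gm26778. The overlaps of Kcnj6, Kcnj9, Kctd16 and Kctd8 with such transcripts span 380, 172, 360 and 106 bases. On its own strand Kctd12 also shares 84 bases with the microRNA gene Mir5130. These overlapping genes have no row in the table, and reads from the shared bases cannot be told apart from reads of the members they overlap.

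Gabbr1 (ENSMUSG00000024462; GRCm38 chromosome 17, 37045966 to 37075067, plus strand) was the highest and the most regular of the 9 genes. It was detected in 61 of the 62 GFP-positive cells (98.4%, interval 91.3% to 100%), at TPM values from 0 through a median of 47.5 to 202, and its mean log2(TPM + 1) was 5.44 ± 1.31 (SD, n = 62). This level placed it in the upper 12.4% of the 17157 genes detected in any of these cells. The means of the 4 ages lay between 5.31 and 5.54, with an SD over ages of 0.10, the smallest among the 9 genes. A single cell, cell 35 at day 20, had no Gabbr1 fragment, and it was also the cell with the fewest genes (5094) of the 62. In the 10 GFP-positive cells with up to 5000 genes Gabbr1 was still detected in 8.

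Gabbr2 (ENSMUSG00000039809; chromosome 4, 46662305 to 46991873, minus strand), which encodes the subunit that couples to the G protein, was detected in 51 cells (82.3%, interval 70.5% to 90.8%). Its TPM ranged from 0 through a median of 18.6 to 177, and its mean was 3.65 ± 2.08. Gabbr2 stood below Gabbr1 by a mean of 1.79 log2 units, and the order held at all 4 ages (0.93 at day 14 and 1.83 to 2.02 at the others). In 46 cells Gabbr1 was the higher of the pair and in 16 cells Gabbr2. Where both were detected (50 cells), the median ratio of Gabbr1 to Gabbr2 was 1.93 and Gabbr1 was higher in 35. Summed over the 62 cells, Gabbr1 made up 69.3% of receptor transcripts, and between 59.7% and 74.1% at single ages. From cell to cell the levels of the pair had a Pearson's r of -0.10 and a Spearman's rho of -0.07 over the 62 cells (r between -0.38 and 0.12 at single ages), a description over cells that differ in depth.

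The 11 cells without Gabbr2 differed from the others in further measures. They had Gabbr1 at TPM values from 9.10 (cell 5, or 60.3 with its short RNA left out of the total) to 202, and cell 81, which held the highest Gabbr1 of all, was one of them. Their median number of detected genes was 6531, against 8497 in the 51 cells with Gabbr2, while the median number of fragments was similar (1717325 and 1797268). Glial transcripts were higher in them, with 8 of 9 astrocyte markers and 7 of 8 oligodendrocyte markers above the level of the other cells and list means of 3.49 against 2.55 (astrocyte) and 3.94 against 3.16 (oligodendrocyte). The astrocyte list ranged from 1.33 to 7.40 in the cells without and from 1.25 to 4.64 in the cells with Gabbr2. The part of glial transcripts in the level of Gabbr2 was not tested.

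**Figure D1:**
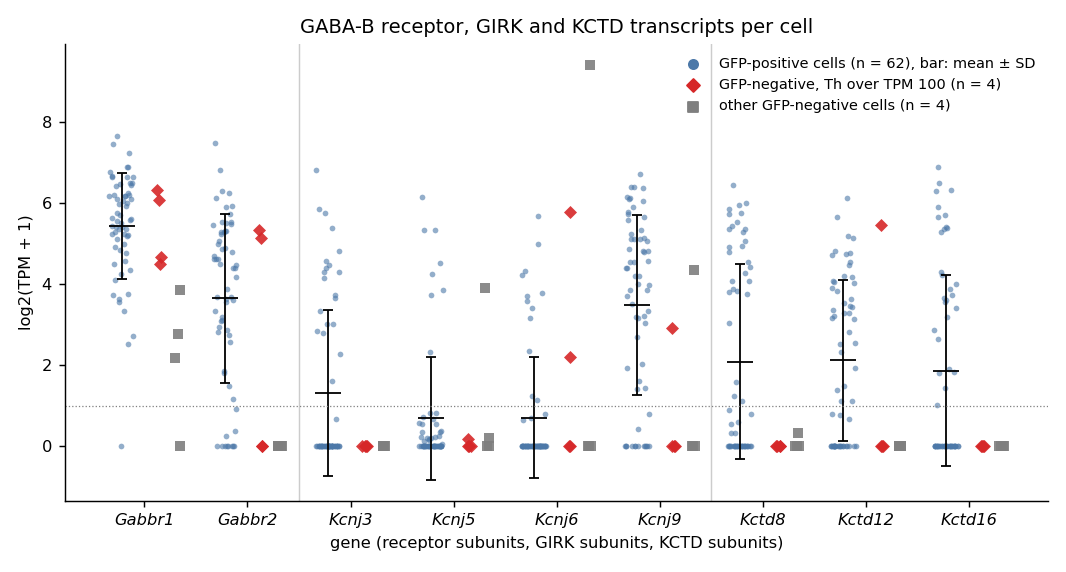
Level of the 9 genes in each cell, as log2(TPM + 1); blue points are the 62 GFP-positive cells with mean and SD over cells as bars, red diamonds the 4 Th-high and grey squares the 4 other GFP-negative cells, and the dotted line is TPM 1. Gabbr1 lies above the line in 61 of 62 GFP-positive cells, while Kcnj3, Kcnj5 and Kcnj6 lie at or near 0 in most of them.

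Among the GIRK genes Kcnj9 was the leading one. Kcnj9 (ENSMUSG00000038026; chromosome 1, 172320501 to 172329318, minus strand), which encodes GIRK3, was detected in 48 cells (77.4%, interval 65.0% to 87.1%) with a median TPM of 16.3, a highest TPM of 104 and a mean of 3.49 ± 2.23. Its level was close to that of Gabbr2: the difference of 0.16 log2 units was smaller than its SD over the 4 ages (0.80) and held its sign at 3 of them. It exceeded the next gene in the order, Kctd12, by 1.37 at an SD over ages of 0.64, at all 4 ages. Kcnj9 made up 63.3% of the summed GIRK transcripts (54.6% to 74.8% at single ages) and was the highest GIRK gene in 42 of the 58 cells with any GIRK transcript.

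The other 3 GIRK genes were each detected in a minority of cells. Kcnj3 (ENSMUSG00000026824; chromosome 2, 55435970 to 55598145, plus strand) encodes GIRK1, which needs a partner subunit to form a working channel at the surface. It was detected in 20 cells (32.3%, interval 20.9% to 45.3%) with a mean of 1.32 ± 2.04, but where it was detected its median TPM was 17.7, and it reached 112 in cell 35. Kcnj3 was thus not detected in most cells. Its median where detected lay below that of Kcnj9 over the 48 cells with Kcnj9 (24.7). In the 13 cells with both genes, the median ratio of Kcnj9 to Kcnj3 was 1.04, and Kcnj9 was the higher in 7. Kcnj6 (ENSMUSG00000043301; chromosome 16, 94748636 to 94997701, minus strand) encodes GIRK2, a subunit that can form channels on its own and is a main GIRK of dopaminergic neurons. It was detected in 12 cells (19.4%, interval 10.4% to 31.4%), at TPM values from 1.20 through a median of 11.6 to 50.04, with a mean over all 62 cells of 0.71 ± 1.49. Kcnj5 (ENSMUSG00000032034; chromosome 9, 32314707 to 32344350, minus strand) encodes GIRK4, best known from the heart. It was detected in 8 cells (12.9%, interval 5.74% to 23.9%) at 4.05 to 69.9 TPM, and a further 19 of the 27 cells with any Kcnj5 signal stood at or below a TPM of 1. Kcnj3 lay above Kcnj6 at all 4 ages, but by 0.01 at day 16, and the difference of 0.61 was smaller than its SD over ages (0.65). Kcnj6 and Kcnj5 (0.71 and 0.69) could not be ordered.

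Kcnj9 was the partner found with nearly every other GIRK gene, and it was also the one most often found alone. In 24 cells Kcnj9 was the sole GIRK gene detected, in 7 cells Kcnj3 was, and in no cell was Kcnj5 or Kcnj6. All 12 cells with Kcnj6 and all 8 cells with Kcnj5 also held Kcnj9, and none of the 14 cells without Kcnj9 held either. Kcnj3 went the other way, at 13 of 48 cells with Kcnj9 (27.1%) and 7 of 14 without (50%), and its level had an r of -0.26 with that of Kcnj9 (-0.77 to -0.15 at single ages). Depth moved with these combinations: the 7 cells with Kcnj3 alone had a median of 6262 genes and 883175 fragments and the 14 cells without Kcnj9 a median of 6447 genes, against 8538 in the 48 cells with it. The part of depth in these pairings was not tested. Kcnj3 and Kcnj6, which encode the classical neuronal pair GIRK1 and GIRK2, were found together in 3 cells (4.84%, interval 1.01% to 13.5%), and all 4 genes in 1 cell, cell 6 at day 15, with TPM values of 27.2 for Kcnj3, 69.9 for Kcnj5, 19.2 for Kcnj6 and 8.23 for Kcnj9. At least 1 GIRK gene was detected in 55 cells (88.7%, interval 78.1% to 95.3%) and 2 or more in 24 (38.7%, interval 26.6% to 51.9%).

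**Figure D2:**
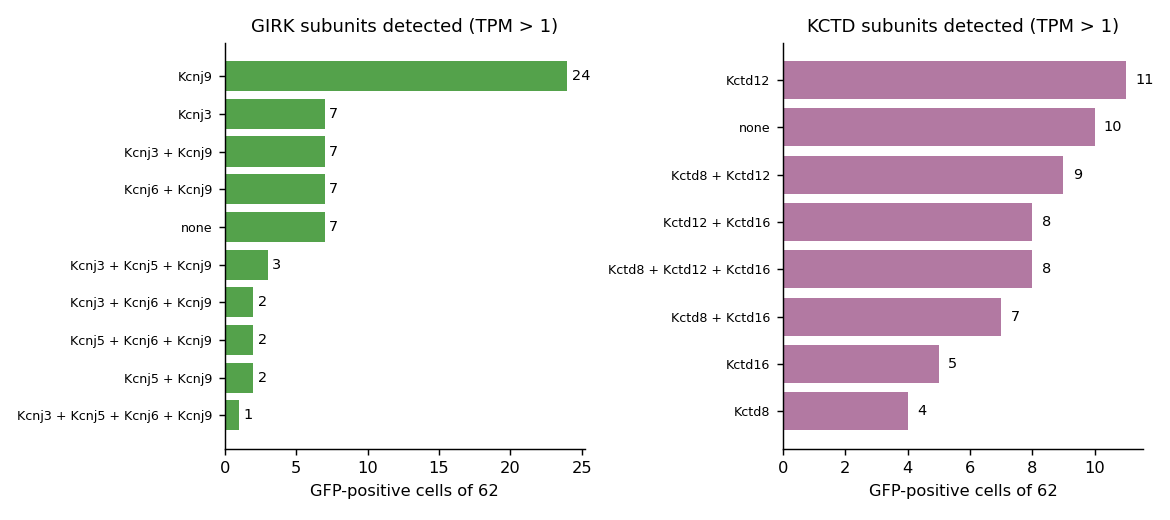
Number of GFP-positive cells of 62 (bar length) with each combination of GIRK genes (left) and KCTD genes (right) detected at TPM > 1. Kcnj9 alone was the most frequent GIRK combination, with 24 cells, and among the KCTD genes the 8 possible combinations held between 4 and 11 cells each.

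The KCTD genes lay between the leading and the rare GIRK genes. Kctd12 (ENSMUSG00000098557; chromosome 14, 102976581 to 102982637, minus strand), whose protein is known to make GABA-B responses desensitise, was detected in 36 cells (58.1%, interval 44.8% to 70.5%) with a mean of 2.12 ± 1.99. Kctd8 (ENSMUSG00000037653; chromosome 5, 69109285 to 69341679, minus strand) and Kctd16 (ENSMUSG00000051401; chromosome 18), whose proteins give more sustained responses, were detected in 28 cells each (45.2%, interval 32.5% to 58.3%) with means of 2.09 ± 2.40 and 1.87 ± 2.36. The 3 means could not be ordered: neighbouring differences of 0.03 and 0.22 were far below their SD over ages (0.68 and 1.43), and the order held at 2 of 4 ages in both. Kctd12 was found in more cells but at lower levels, with a median TPM of 11.1 where detected, against 28.0 for Kctd8 and 14.4 for Kctd16. Over all ages Kctd12 made up 25.1% of summed KCTD transcripts (19.7% to 28.8% at single ages), Kctd8 37.8% (22.3% to 51.3%) and Kctd16 37.0% (19.9% to 58.1%), so that their order was not fixed across ages. In the 17 cells with both Kctd12 and Kctd8, Kctd12 was the higher in 5.

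No combination of KCTD genes prevailed. A single KCTD gene was found in 20 cells (Kctd12 in 11, Kctd16 in 5, Kctd8 in 4), pairs in 24, all 3 in 8 and none in 10. At least 1 was detected in 52 cells (83.9%, interval 72.3% to 92.0%). The 3 genes had near-zero correlations with each other across the 62 cells (r = 0.03 for Kctd8 and Kctd12, 0.11 for Kctd8 and Kctd16, 0.12 for Kctd12 and Kctd16). The 8 cells with all 3 genes had a median of 9380 detected genes and 2616008 fragments, and the 10 cells with none 6264 and 1406992. Kctd12 alone (941546), Kctd8 alone (1237370) and Kctd12 with Kctd16 (1099472) had lower median fragments than the cells with none, and the other combinations had higher ones. The part of depth in these counts was not tested. Of the 9 genes, Kctd8 (r = 0.35) and Kctd12 (0.34) had the highest correlations with the number of detected genes. With the logarithm of the fragments their r was 0.30 and -0.09.

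**Figure D3:**
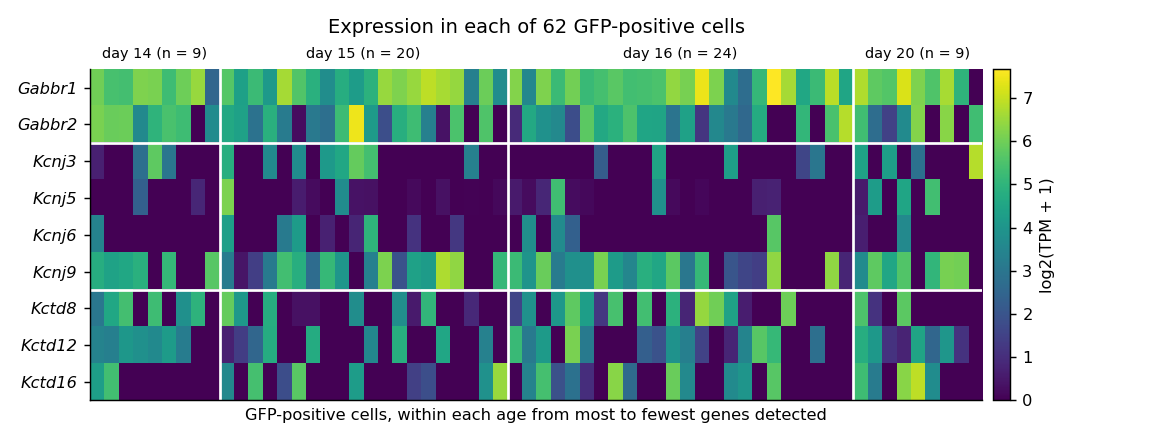
Level of the 9 genes (rows) in each of the 62 GFP-positive cells (columns), grouped by postnatal day and ordered within each day from most to fewest detected genes; colour is log2(TPM + 1) from 0 (dark) to the highest value (yellow). Gabbr1 is above 0 in 61 of the 62 columns, whereas the KCTD rows differ from cell to cell at every age.

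Transcripts of both subunits of the receptor dimer were detected in most GFP-positive cells. Both receptor subunits were found in 50 of 62 cells (80.6%, interval 68.6% to 89.6%), Gabbr1 without Gabbr2 in 11 and Gabbr2 without Gabbr1 in 1. Both subunits with at least 1 GIRK gene were found in 45 cells (72.6%, interval 59.8% to 83.1%), and with at least 1 KCTD gene besides in 38 (61.3%, interval 48.1% to 73.4%). By age, this last set was found in 6 of 9 cells at day 14, 10 of 20 at day 15, 16 of 24 at day 16 and 6 of 9 at day 20. At a limit of TPM > 10 the shares of these 3 sets were 58.1%, 41.9% and 30.6%. No cell held all 9 genes (exact interval 0% to 5.78%). Counting only GIRK combinations that hold Kcnj6, or Kcnj3 with another GIRK gene, both receptor subunits were present in 20 cells (32.3%, interval 20.9% to 45.3%). Among the 72 GFP-positive cells without a limit on genes, 51 held both receptor subunits, 45 a GIRK gene besides and 38 the full set. At TPM > 1, none of the 10 cells with few genes thus had a GIRK gene together with both receptor subunits. Cell 26, one of them, had 96.6% of its total in a short RNA. With such RNAs left out, its Gabbr1, Gabbr2, Kcnj9 and Kctd12 stood at TPM values of 79.6, 13.5, 55.7 and 11.6, which is the full set.

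The full set went with depth. The 38 cells with it had a median of 8743 detected genes and 1895667 fragments, against 6581 genes and 1073843 fragments in the 24 cells without it. At the median depth 1 fragment of these transcripts stood for a TPM of 0.200 (Kctd12) to 0.456 (Kctd16), below the limit for detection, but in 5 (Gabbr2, Kctd12) to 15 (Kctd16) of the 62 cells 1 fragment was worth more than a TPM of 1. Among the 45 cells with at least 1000000 fragments, the shares were 86.7% for both receptor subunits, 80.0% with a GIRK gene and 68.9% for the full set. A gene that was not detected in a cell may thus have been present below what that cell's depth could show.

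Between ages the means of the 9 genes moved to different extents. The SD over the 4 age means was between 0.10 (Gabbr1) and 0.80 (Kctd8), in means over 9 to 24 cells that each had an SD of 0.79 to 2.91. Gabbr2 averaged 4.56 at day 14 and 3.46 to 3.52 at the other ages, and was detected in 8 of 9 cells there. Kctd16 stood at 1.07, 1.72, 1.93 and 2.83 at days 14, 15, 16 and 20, and Kctd8 at 3.00, 1.47, 2.53 and 1.37, without a common direction. Kcnj5 averaged 1.63 at day 20, where 3 of 9 cells held it, against 0.35 to 0.61 at the earlier ages. With 9 cells at day 14 and at day 20 and no animal named, none of these differences could be set against the spread between animals. Depth differed between ages as well, with median fragments of 1107126, 2204979, 1929537 and 557534 at days 14, 15, 16 and 20. The part of depth in the differences between ages was not tested.

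**Figure D4:**
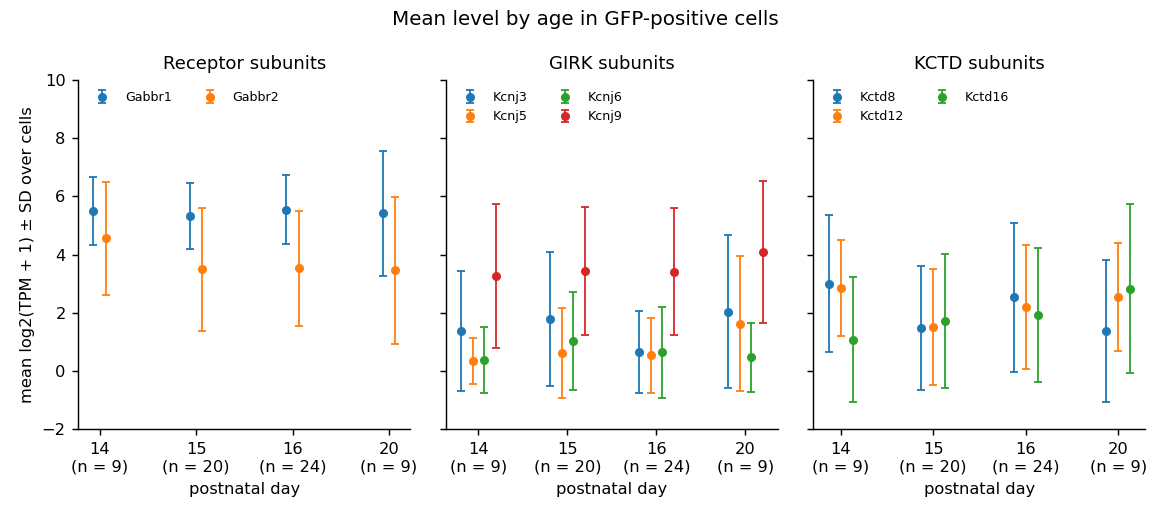
Mean log2(TPM + 1) of each gene (points) at postnatal days 14, 15, 16 and 20 in the GFP-positive cells, with the SD over the cells of that day as bars; the bars pass below 0 where most cells are at 0. Gabbr1 stays between 5.31 and 5.54, and Kcnj9 is the highest GIRK gene at each age.

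Over the 62 cells no pair of the 9 genes had a correlation above 0.38 in size. Of the 36 pairs the largest were Gabbr1 with Kcnj3 (r = -0.38), Gabbr1 with Kcnj9 (0.33), Kcnj6 with Kctd16 (0.32) and Kcnj5 with Kcnj6 (0.31). Within single ages values were more spread and changed sign, as for Gabbr1 with Kcnj9 (-0.54 at day 14, 0.45 to 0.56 at the others), and reached 0.76 for Gabbr2 with Kctd12 at day 14 and 0.79 for Kcnj6 with Kctd8 at day 20, each over 9 cells. The cells differ in depth and composition and may differ in batch, and these values are descriptions only. For the 4 members detected in at least 50% of cells, the genes with the most similar pattern among 8026 such genes (Pearson's r over 62 cells, each gene centred on its age mean) were Nlgn2, Nrsn2 and Rpl15 for Gabbr1 (0.65, 0.65 and 0.64), and for Gabbr2 they included Ttll7 and Brinp1 (0.56 each). Nlgn2 encodes neuroligin 2, an adhesion protein of inhibitory synapses. For Kcnj9 they were Fam114a2, Igdcc4 and Tpgs2 (0.59, 0.57 and 0.56), and for Kctd12 they were Aar2, Hddc3 and Rnf216 (0.50, 0.49 and 0.48). The median r over all genes was 0.09 to 0.11. Kcnj9 came at position 606 of 8026 in likeness to Gabbr1, whereas Gabbr2 came at 7450.

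In 12 of the 62 GFP-positive cells Th, Ddc or Slc6a3, genes of dopamine synthesis and transport, were above a TPM of 1. Gabbr1 and Gabbr2 averaged 5.48 and 3.59 in them, against 5.43 and 3.67 in the other 50 cells, and were detected in 12 and 10 of the 12. Kcnj3 was detected in 1 of the 12 and in 19 of the 50, Kcnj6 in 2 and 10, and Kcnj9 in 10 and 38.

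Set against the 4 Th-high cells, the receptor subunits and the GIRK subunits gave different pictures: the means of Gabbr1 lay within 0.05 log2 units of each other, Kcnj9 was lower in the Th-high cells, and Kcnj6 was higher in 1 of them. Gabbr1 had TPM values of 21.8, 66.5, 24.3 and 78.9 in cells 44, 48, 75 and 86, and its mean of 5.39 ± 0.94 (SD, n = 4) lay 0.05 below that of the GFP-positive cells (0.19 below at day 14, 0.05 at day 16). All 4 values lay within the range of the 62 GFP-positive cells. Gabbr2 was split, with TPM values of 39.2 and 34.04 in cells 48 and 86 and 0 in cells 44 and 75. Its difference of means (Th-high minus GFP-positive) was -1.04, or -1.90 at day 14 and -0.95 at day 16. The 2 cells without Gabbr2 were those with fewer genes, 5174 in cell 44 and 4478 in cell 75, against 8859 and 9173 in cells 48 and 86, and cell 44 had 153550 fragments, where 1 fragment of Gabbr2 stood for a TPM of 2.45. Cell 75 would not have passed the limit of 5000 genes set for the GFP-positive cells.

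Kcnj9, the leading GIRK gene of the GFP-positive cells, was low in the Th-high cells. It stood at a TPM of 6.55 in cell 48 and at 0 in the other 3, including cell 86 with 3914814 fragments, where 1 fragment would have given a TPM of 0.161. The mean was 0.73 against 3.49, a difference of -2.76 (-1.81 at day 14, -3.41 at day 16 and between -3.49 and -2.52 with each Th-high cell left out). Of the GFP-positive cells, 42 had more Kcnj9 than any Th-high cell. The rest lay below the 6.55 of cell 48 and overlapped with the Th-high cells. They were the 14 cells without detection and further cells with Kcnj9 at low levels, up to 5.54 in cell 7. A difference of at least 2 log2 units in size (4-fold on the scale of TPM + 1) was the rule by which a gene was called. Among 9412 genes detected in at least 50% of either group, 905 (9.62%) were called lower and 489 (5.2%) higher in the Th-high cells, and the median difference was -0.22. Of the 5 members that entered this comparison (Gabbr1, Gabbr2, Kcnj6, Kcnj9 and Kctd12), 1 was called lower, Kcnj9, and none higher, too few genes to read against the background. Without the detection limit, 937 of 17265 genes (5.43%) were called lower and 489 (2.83%) higher, and 2 of the 9 members, Kcnj9 and Kctd8, were among the lower. With a pseudocount of 0.1, Gabbr2 (-2.12) and Kcnj6 (2.16) also passed 2 in size. No member separated the groups without overlap, as 3 genes (0.0319%) did lower and 23 (0.244%) higher in the Th-high cells.

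Kcnj6 lay in the other direction. The TPM values of the Th-high cells were 53.9 in cell 48, 3.57 in cell 86 and 0 in cells 44 and 75, and cell 48 stood above each of the 62 GFP-positive cells, of which the highest had 50.04. The mean was 1.99 ± 2.73 against 0.71 ± 1.49, a difference of 1.29 (2.51 at day 14, 0.45 at day 16). This rests on cell 48: without it the difference was 0.03. In both Th-high cells with many genes Kcnj6 was detected, and in one of them together with Kcnj9. Kcnj3 was listed at 0 in all 4 Th-high cells and detected in 20 of 62 GFP-positive cells, and Kcnj5 stood at a TPM of 0.135 in cell 86 and at 0 in the others. For 0 of 4 cells the exact interval reaches 60.2%, so that their lack of Kcnj3 does not set them apart.

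A KCTD gene was detected in 1 Th-high cell. Kctd12 stood at a TPM of 43.3 in cell 44, above all but 2 of the GFP-positive cells, and at 0 in cells 48, 75 and 86, and its difference of -0.76 went to -2.12 without cell 44. Kctd8 and Kctd16 were listed at 0 in all 4 cells, against a detection in 28 of 62 GFP-positive cells each (45.2%). The exact interval for 0 of 4 cells reaches 60.2% and includes this share. In cell 44, 1 fragment of Kctd8 or Kctd16 stood for a TPM of 5.12 or 5.30, and in cell 86 for 0.221 or 0.229. Both receptor subunits with a GIRK gene were found in 2 of the 4 Th-high cells (cells 48 and 86), and with a KCTD gene besides in none.

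**Figure D5:**
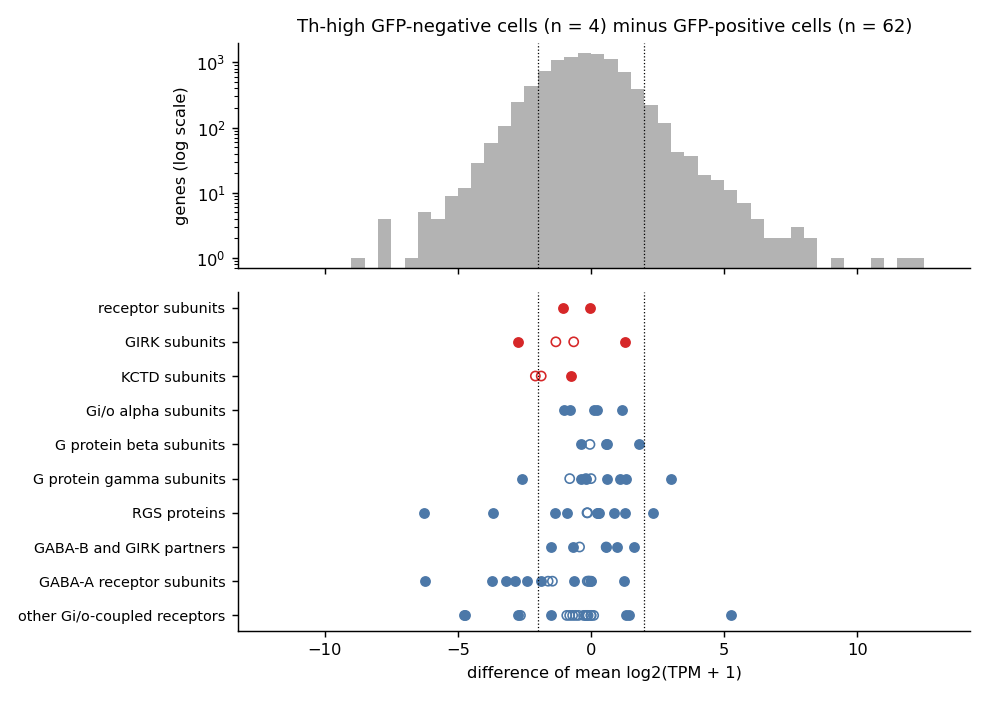
Difference of mean log2(TPM + 1), 4 Th-high minus 62 GFP-positive cells: histogram over the 9412 genes that entered the comparison, with the number of genes on a log axis (top), and the 9 members (red) with genes of related lists (blue) below, 1 point per gene. Filled points passed the limit of detection in 50% of either group, open points did not, and dotted lines mark a difference of 2 in size; of the filled red points Kcnj9 alone lies beyond a line.

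The other 4 GFP-negative cells held few of these transcripts. Cells 68, 70 and 77 had Mog, a myelin protein, at TPM values of 5998, 10180 and 429.9 and Snap25, a synaptic protein, at 0.621 or less. In cells 68 and 70 Gabbr1 was at 3.53 and 13.6, lower than in 61 and 54 of the 62 GFP-positive cells. In cell 77 it was at 5.84, but a short RNA held 93.3% of that cell's total, and with such RNAs left out Gabbr1 stood at 87.2, lower than in 13 of the GFP-positive cells. Gabbr2 was at 0 in all 3. Of the other members cell 70 held Kcnj9 at 19.5 and traces of Kcnj5 (0.156) and Kctd8 (0.252), and cells 68 and 77 held none. Cell 47, with Snap25 at 1096, Gad1 at 33.0 and Th at 0, lacked both receptor subunits and held Kcnj6 at a TPM of 683 and Kcnj5 at 13.9. In that cell, with 257758 fragments and 3922 genes, 1 fragment of Kcnj6 stood for a TPM of 5.81.

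The G proteins through which the receptor signals included genes at higher levels than the receptor and the channel. The counts of called genes in this and the next lists stand beside the shares over all genes, 9.62% lower and 5.2% higher. Of the 5 Gi/o alpha genes, all 5 entered the comparison with the Th-high cells and none was called. Gnao1, which encodes the most abundant G protein alpha subunit of brain, led with 7.04 ± 0.81, ahead of Gnaz (4.86) and Gnai1 (4.85). Of 5 beta genes 4 entered and none was called, with Gnb1 at 9.83 ± 0.62, Gnb5 at 7.61 and Gnb2 at 4.81. Of 10 gamma genes 7 entered, and Gng5 was higher in the Th-high cells (7.18 against 4.17) and Gng12 lower (listed at 0 in all 4 cells, against a mean of 2.60). Gng3 (8.26 ± 0.68), Gng13 (4.71) and Gng2 (4.36) led this list in the GFP-positive cells. Of the 9 members, Gabbr1 alone reached the level of Gnai1.

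RGS proteins, which end G protein signals, included larger differences. Of 12 genes of this list 10 entered, and Rgs10 (7.58 ± 2.69 in the GFP-positive cells) and Rgs8 (5.20) were lower in the Th-high cells by 6.26 and 3.69, while Rgs20 was higher by 2.32 (4.06 against 1.74). The other leading genes of the list were Rgs7bp at 6.27, which encodes a binding protein of RGS proteins, and Rgs4 at 5.89. They differed by -1.35 and -0.92. Of 7 partners of the GABA-B receptor and of GIRK channels 5 entered and none was called, among them App (8.83), whose secreted forms bind GABA-B1, Snx27 (5.07), a sorting protein of GIRK channels, and Pianp (4.37). Kcnj11 (2.58), a subunit of the ATP-sensitive potassium channel, was the 1 of 11 other inward rectifiers that entered and differed by 0.51.

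Effectors of the pathway were at low levels. Of 8 calcium channel alpha subunit genes 7 entered, and Cacna1e was higher in the Th-high cells by 2.23 (3.61 against 1.38). Cacna1b, which encodes the N-type channel that GABA-B receptors inhibit at terminals, led with 2.71 ± 1.74 and differed by -0.61, followed by Cacna1g (1.90) and Cacna1d (1.85). Of 9 adenylyl cyclase genes 6 entered, and Adcy8, the list's highest in GFP-positive cells with 2.86, was listed at 0 in all 4 Th-high cells, while Adcy2 (2.78) and Adcy9 (2.72) differed by 0.39 and -1.59.

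Of 15 GABA-A receptor genes, which encode the ionotropic receptor for GABA, 9 entered and 5 were lower in the Th-high cells, none higher, among them Gabrb2 (8.39 against 4.69), Gabra2 (4.55 against 1.36) and Gabra3 (4.68 against 2.27). The median difference over these 9 genes was -2.41, beside -0.22 over all genes that entered and -0.54 over the 2 GABA-B receptor genes. Of 22 other receptors that couple to Gi/o, 7 entered. Drd2, the dopamine D2 receptor, was higher in the Th-high cells by 5.26 and was detected in all 4. Sstr1, a somatostatin receptor, was listed at 0 in all 4, against 4.77 in the GFP-positive cells. Cnr1, the cannabinoid receptor CB1, was lower by 4.72, and Oprl1, the nociceptin receptor, by 2.75 (3.27 against 6.02). In the GFP-positive cells these 3 receptor genes (6.02, 4.77 and 4.76) were higher than Gabbr2 and, other than Oprl1, below Gabbr1.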

How the data were processed

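The deposited table holds 1 FPKM value per gene and cell, which the authors made by separating reads by barcode, aligning them (paired, 25 bases each) to GRCm38 (mm10) in TopHat 2.0.10 and quantifying with the Cufflinks suite 2.2.1 (Cuffnorm, per the submitters' processing notes), for cells that passed their limits on alignment. The gene annotation and the library-size method behind the FPKM are not given in the sources used here. The 80 columns were matched to cells by the labels. TPM were obtained by scaling each column of FPKM to a sum of 1000000. Expression was taken as log2(TPM + 1), and detection as TPM > 1, with 62 GFP-positive cells above 5000 genes. A short noncoding RNA held over 25% of the summed FPKM (AF357359 in 4 cells, Rnu6 in 3), which lowers every other TPM of that cell.

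Fragments per cell (127871 to 6201354 over the 80 cells) were estimated from the spacing of low FPKM of 1083 genes with 1 transcript longer than 2500 bases, at an assumed fragment length of 200 bases. The table holds no counts, and this estimate is the only measure of depth. Identifiers, positions and the printed sequences come from the GRCm38 genome with the GENCODE M21 annotation, which held 21550 of the 22815 symbols. Python 3.11.15, pandas 2.3.3, numpy 2.4.6, SciPy 1.17.1 and matplotlib 3.10.9 were used, and the calculations were tested on simulated data.

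Each cell is 1 sample in the labels and no animal is named, so no p-value or standard error was computed. Groups were compared by the difference of mean log2(TPM + 1) over all genes detected in at least 50% of either group, with a difference of 2 as the rule for a call. The members, the related gene lists and the marker lists were chosen with earlier results of these data known. Named are the 9 members, marker genes where a check turns on them, in each list the 3 genes with the highest mean in GFP-positive cells and those called, and for members detected in 50% of cells the 3 genes most like them. Some genes this rule selects are not reported here. Alternatives were other limits for detection and for Th, a pseudocount of 0.1, FPKM as deposited, totals without the short RNAs, no filters on cells or genes, single ages, subsets of cells and each Th-high cell left out in turn.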

Additional observations from a re-analysis of the deposited data

Results flagged for a closer look

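In each age group of the GFP-positive cells with 9 cells, over the age means and in the 4 Th-high cells, the highest and lowest values were screened for a gap to their neighbour by Dixon's ratio, over cells and not animals. Of 33 groups 10 stood out, where chance gives about 1 in 20, and a group in which a single cell is above 0 stands out by construction. All values are log2(TPM + 1) unless stated.

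Gabbr1 was low in 2 GFP-positive cells. At day 14, cell 53 stood at 2.53, with the next cell at 5.30, and at day 20 cell 35 stood at 0.0, with the next at 4.99. Gabbr2 was at 0.0 in cell 45 at day 14, with the next at 3.64, and this cell also had the highest astrocyte list of the 62 cells (7.40). The day 14 mean of Gabbr2, 4.56, stood above the other age means, of which the nearest was 3.52.

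Kcnj5 stood at 2.34 in cell 51 at day 14, with the next at 0.82, and Kcnj6 at 3.42 in cell 40 at day 14, the 1 cell of 9 above 0. At day 20 Kcnj6 stood at 3.6 in cell 36, with the next at 0.64. In the Th-high cells 3 genes were above 0 in 1 cell each, Kcnj5 at 0.18 in cell 86, Kcnj9 at 2.92 in cell 48 and Kctd12 at 5.47 in cell 44.

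Outside both groups, the GFP-negative cell 47, which had neither Th nor the myelin markers of the other 3, held Kcnj6 at a TPM of 683, against a highest value of 50.04 in the 62 GFP-positive cells. It was 1 cell with 257758 fragments, and no second cell of its kind was among those analysed.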

How the results depend on the processing

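The shares of co-detection depended on the limit for detection. At TPM > 10 both receptor subunits were found in 58.1% of cells. With a GIRK gene besides, the share was 56.5% at TPM > 5 and 41.9% at TPM > 10, and for the full set 43.5% and 30.6%. At TPM > 0, with FPKM, without the short RNAs in the total, in all 72 cells, at days 14 to 16, without the 12 cells highest in glial lists or at 1000000 fragments or more, these shares moved by less than their intervals. Of the members, 1 was called against the Th-high cells, and 3 were with log2(TPM + 0.1) (Gabbr2, Kcnj6 and Kcnj9) and 2 without the detection limit (Kcnj9 and Kctd8). Leaving out each Th-high cell gave 1 to 2, with Kctd12 added without cell 44, the only Th-high cell in which it was above 0. Why cell 44 alone held it was not tested. The other 11 alternatives gave 1 (Kcnj9). Among them the other limits for Th chose the same 4 cells and could not differ. No member's difference changed direction past the limit for a call. With a pseudocount of 0.1 the means of Kcnj3, Kcnj5 and Kcnj6 were -0.93, -1.75 and -1.91. Kcnj5 was above 0 in 43.5% of cells, against 12.9% above TPM 1. No paired analysis was possible because the labels number single cells and name no animal.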
